A study of Mus musculus with 45 samples.

Results

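Glucocorticoid signalling was followed in adipocytes through 9 genes: the glucocorticoid receptor Nr3c1, the mineralocorticoid receptor Nr3c2, the steroid-activating enzyme Hsd11b1, and the hormone-responsive genes Fkbp5, Tsc22d3, Zbtb16, Sgk1, Mt1 and Mt2. The members were all probe sets whose only gene symbol in the array annotation is 1 of these names, which gave 9 of 18193 genes and 22 of 45037 probe sets. The values came from Affymetrix arrays, 1 per mouse, and are log2 RMA values (background-corrected, normalized and summarized intensities), so that a difference of 1.00 is a doubling. Adipocytes were prepared from the parametrial and periovarian fat of 45 female mice of C57BL/6 background.

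The D mice (n = 26) carried heterozygous deletions of the insulin receptor and of IRS1 and lacked ApoE (IR+/- IRS1+/- ApoE-/-). The E mice (n = 19) lacked ApoE only. The groups were D mice after 16 weeks of Western diet (DW16, n = 9) or chow (DC16, n = 5), D mice after 8 weeks of Western diet (DW8, n = 5) or chow (DC8, n = 7), and E mice after 16 weeks of Western diet (EW16, n = 8) or chow (EC16, n = 5) and after 8 weeks of Western diet (EW8, n = 6). The diets began at 8 weeks of age, and the mice were killed in the morning without a fast. All mice lacked ApoE, the deletions were in the whole body, and chow-fed E mice at 8 weeks were not analysed here. Fewer cells of a type and less RNA per cell cannot be told apart in such samples.

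Glucocorticoids enter the cell, where 11beta-hydroxysteroid dehydrogenase type 1, the product of Hsd11b1, regenerates active corticosterone from its inactive keto form in mouse fat. The hormone binds the glucocorticoid receptor, which leaves its chaperones, enters the nucleus and binds DNA at paired AGAACA-like sites. Fkbp5, Tsc22d3, Zbtb16, Sgk1 and the metallothioneins are widely used as readouts of the bound receptor, and in fat cells the hormone promotes differentiation and alters lipid storage.

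Of all 45 arrays, 6 (DW16 mice 2, 3, 4 and 6 and EW16 mice 2 and 3) spanned a narrower range of values, with a 95th percentile of 10.14 to 10.50 against 10.79 to 11.14 in the other 39. A wider set of 10 arrays (DW16 mice 1 to 7 and EW16 mice 1 to 3) had a 95th percentile of up to 10.85, below that of the remaining 35 arrays. No source used here names a batch, so range of values and 16 weeks of Western diet cannot be told apart except within the DW16 and EW16 groups. The 7 measured adipocyte markers had a mean of 11.92 (range 11.18 to 12.76) in DW16 and 12.55 (12.34 to 12.80) in DC16. The corresponding means of the endothelial list (4 genes, all tested) were 8.27 (7.72 to 9.36) and 9.14 (9.02 to 9.36), and those of the 6 immediate early genes were 11.39 (10.54 to 12.47) in DW16 and 12.47 (11.97 to 12.62) in DC16. The macrophage list (6 genes) had means of 8.75 (8.26 to 9.40) in DW16 and 9.13 (8.59 to 9.56) in DC16, and the stromal list (5 genes) 9.91 (9.43 to 10.31) and 10.22 (9.92 to 10.67). The mean of the lymphocyte list (4 genes) lay between 4.67 and 5.45 in every mouse, and 1 of its genes, Cd3e, was higher in DW16 than in DC16 (0.49, adjusted p = 0.00789). The mesothelial and epithelial list (6 genes) averaged 6.83 (6.52 to 7.71) in EW16 and 7.86 (7.46 to 8.48) in EC16, with 3 of 6 genes called lower. The part of other cell types in the differences was not tested. Of the targeted genes, Insr differed by -1.03 (DW16 against EW16, adjusted p = 0.152, limma), -0.88 (DC16 against EC16, adjusted p = 0.157) and -0.56 (DW8 against EW8, adjusted p = 0.985), and Irs1 by -0.69, -0.18 and -0.16 in the same order. None of these passed the threshold of an adjusted p under 0.01 (limma). SAM, a permutation method, called 1 of the 3 targeted genes (Insr, Irs1 and Apoe) in DW16 against EW16 and 1 in DC16 against EC16. It called 0 of them in DW8 against EW8. Over all probe sets SAM called 7, 9 and 4 in the same order.

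The promoters of Sgk1 and Mt2 are shown because they hold full-length or repeated copies of the elements that glucocorticoids and metals are known to act through. RefSeq windows (build GRCm38.p6) were matched by symbol for 7 of 9 members, 14 windows in all, and the 250 bases upstream of each annotated start were searched on both strands. The Sgk1 window at chr10:21993640-21993889 (plus strand), upstream of 1 of 6 annotated starts, holds the full palindrome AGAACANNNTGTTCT, in capitals, which starts at position -189 from that start. The Mt2 window at chr8:94172368-94172617 (plus strand) holds 3 cores of the metal response element (TGCACNC or TGCGCNC, either strand), in capitals, which start at -223, -128 and -50.
Sgk1: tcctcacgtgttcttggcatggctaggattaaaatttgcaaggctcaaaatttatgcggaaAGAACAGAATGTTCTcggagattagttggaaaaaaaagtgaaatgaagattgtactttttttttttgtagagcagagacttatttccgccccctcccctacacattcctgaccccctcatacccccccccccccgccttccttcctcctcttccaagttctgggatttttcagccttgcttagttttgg
Mt2: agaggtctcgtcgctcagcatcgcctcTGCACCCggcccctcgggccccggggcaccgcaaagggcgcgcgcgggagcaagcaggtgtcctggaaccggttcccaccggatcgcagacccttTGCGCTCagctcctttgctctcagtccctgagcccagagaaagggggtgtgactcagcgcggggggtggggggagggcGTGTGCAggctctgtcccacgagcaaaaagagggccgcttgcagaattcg

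The full palindrome occurred in 3 of 32851 windows of this length (0.00913%) and the single site AGAACA, which is part of it, in 16.1%. At least 1 metal response element core occurred in 21.4% of windows and at least 2 in 5.17%. A match is a description of the letters and not a measured binding site. The window of Mt1 (gene at chr8:94178883-94180327, the neighbour of Mt2 at chr8:94172618-94173567 on the same chromosome) overlaps the gene's own annotated span and is not shown.

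Hsd11b1 was lower on Western diet than on chow in D mice at both times. In E mice at 16 weeks the difference was smaller and was not called, and the difference between genotypes did not pass its own test. Its single probe set, 1449038_at (gene at chr1:193221640-193264045), read 9.51, 9.67, 9.70, 9.46 and 9.45 in the 5 DW8 mice, against a lowest, median and highest value of 9.97, 10.38 and 10.57 in DC8. Every DW8 mouse lay below every DC8 mouse. The log2 difference was -0.74 (SE 0.103, 95% interval -0.96 to -0.52, adjusted p = 0.00209, limma, Benjamini-Hochberg over the whole array). Calls were made with limma at an adjusted p under 0.01 unless SAM, a permutation method, is named. Of 22 member probe sets this was the 1 called, at a background of 1.08% of all probe sets called and 2.83% with groups that did not overlap.

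At 16 weeks the same order held for Hsd11b1 in D mice. The DW16 mice read 9.33 at the lowest, 9.85 at the median and 10.17 at the highest, against 10.70, 10.98, 10.60, 10.96 and 10.76 in DC16. The groups again did not overlap, and Hsd11b1 decreased by 1.00 on the log2 scale (SE 0.134, 95% interval -1.28 to -0.72, adjusted p = 0.00189, limma). After quantile normalization of the deposited values the difference was -0.61 (adjusted p = 0.00854). Together with Zbtb16 it made 2 called member probe sets, at a background of 3.43% called and 3.63% without overlap. SAM called 4 of the 22, the others being Nr3c1 1421866_at and 1421867_at. Over all 45037 probe sets limma called 1545 and SAM 6364. Hsd11b1 kept its call when any 1 mouse was left out, in 12 of 12 fits at 8 weeks and 14 of 14 at 16 weeks. The 8-week call was lost with 1 spread over all 7 groups (adjusted p = 0.126) and with the replicate number as a block (-0.79, adjusted p = 0.0175), and the 16-week call with a covariate for array SD (-0.78, adjusted p = 0.0729). Among DW16 mice, the 7 with arrays of narrower range read 9.33 to 10.04 and the 2 others 9.72 and 10.17. With those 10 arrays left out the difference was -0.85 (adjusted p = 0.277) with 2 DW16 mice remaining, and with the 6 left out it was -0.83 (adjusted p = 0.0309).

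In E mice the Hsd11b1 values at 16 weeks split. The EW16 mice read 9.22 at the lowest, 10.35 at the median and 11.34 at the highest, against 10.49, 10.55, 10.41, 10.71 and 10.36 in EC16. EW16 mice 5 to 8 lay between 10.69 and 11.34, whereas mice 1 to 4, of which 1 to 3 had narrower arrays, lay between 9.22 and 10.01. The difference was -0.21 (SE 0.325, 95% interval -0.90 to 0.49), and it was 0.23 (SE 0.228, adjusted p = 0.508) with the 10 arrays left out. The diet effect at 16 weeks in D mice minus that in E mice was -0.79 (SE 0.356, adjusted p = 0.786), which did not pass the threshold. Hsd11b1 averaged 9.56 ± 0.12 in DW8 (SD, n = 5) and 10.04 ± 0.36 in EW8 (SD, n = 6), a difference of -0.48 (adjusted p = 0.985).

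**Figure D1:**
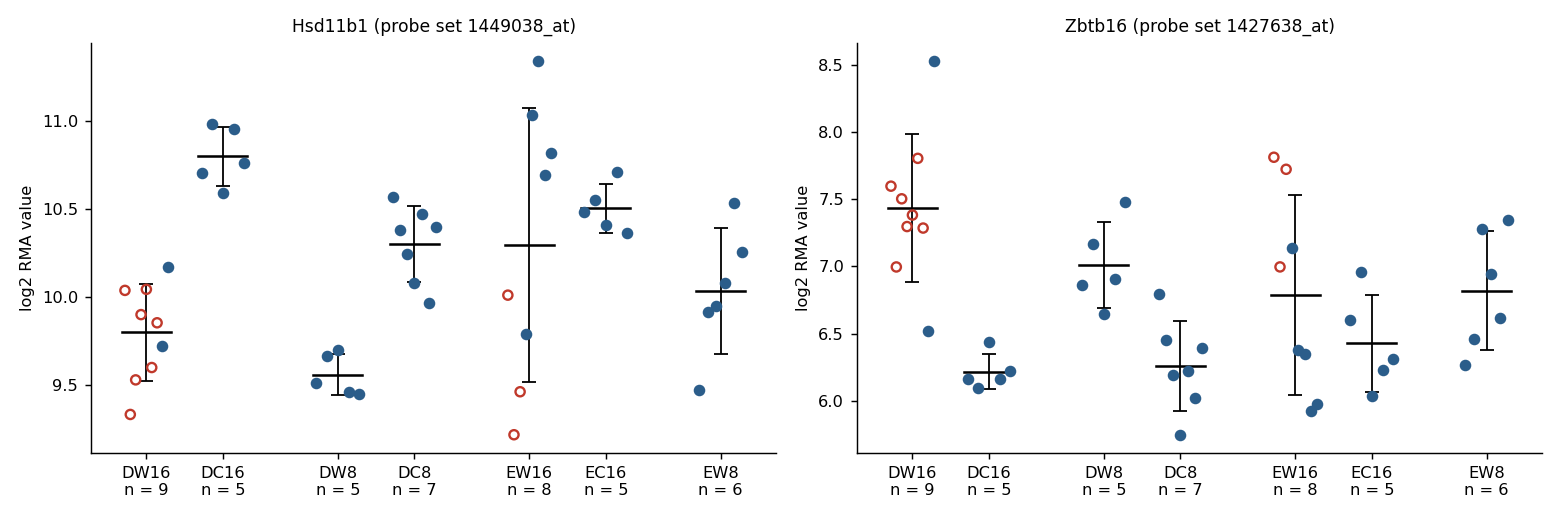
Log2 RMA value of Hsd11b1 (left) and of Zbtb16 probe set 1427638_at (right) in each mouse, by group, with the group mean (bar) and SD (whiskers). Open red circles are the 10 arrays of narrower range. The 9 DW16 mice lie below all 5 DC16 mice for Hsd11b1 and above all of them for Zbtb16.

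Ordered by mean, Hsd11b1 ran 9.56 in DW8, 9.80 in DW16, 10.04 in EW8, 10.30 in EW16, 10.30 in DC8, 10.51 in EC16 and 10.80 in DC16. Neighbours in this order overlapped in their individual mice. DC16 mice lay above DC8 mice without overlap, by 0.50 (SE 0.112), which was not called (adjusted p = 0.208), and 0.671% of all probe sets did not overlap between these groups.

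Nr3c1, the glucocorticoid receptor itself, was read by 6 probe sets whose differences were unequal. The probe set of highest mean, 1460303_at, read 9.54, 10.26 and 11.36 as lowest, median and highest of DW16, against 11.37, 11.52, 11.00, 10.12 and 11.07 in DC16. The groups overlapped, and the difference of -0.79 (SE 0.305, 95% interval -1.44 to -0.14) was not called (adjusted p = 0.073, limma). In EW16 the lowest, median and highest values were 9.52, 11.49 and 11.61, against 11.36, 11.06, 11.15, 10.93 and 10.90 in EC16.

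Most of the low receptor values of both 16-week Western diet groups came from the arrays of narrower range. The 3 EW16 mice among the 10 such arrays read 9.52 to 10.49, and the 5 other EW16 mice 11.46 to 11.61, above every EC16 mouse. Of DW16 mice the 7 among these arrays read 9.54 to 10.73 and the 2 others 10.45 and 11.36. EW16 minus EC16 was 0.46 (SE 0.0925, adjusted p = 0.00676) with the 10 arrays left out and -0.13 (adjusted p = 0.825) with all mice. With them left out, DW16 minus DC16 was -0.11 (SE 0.374, adjusted p = 0.97). The part of the array range in these values was not tested.

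**Figure D2:**
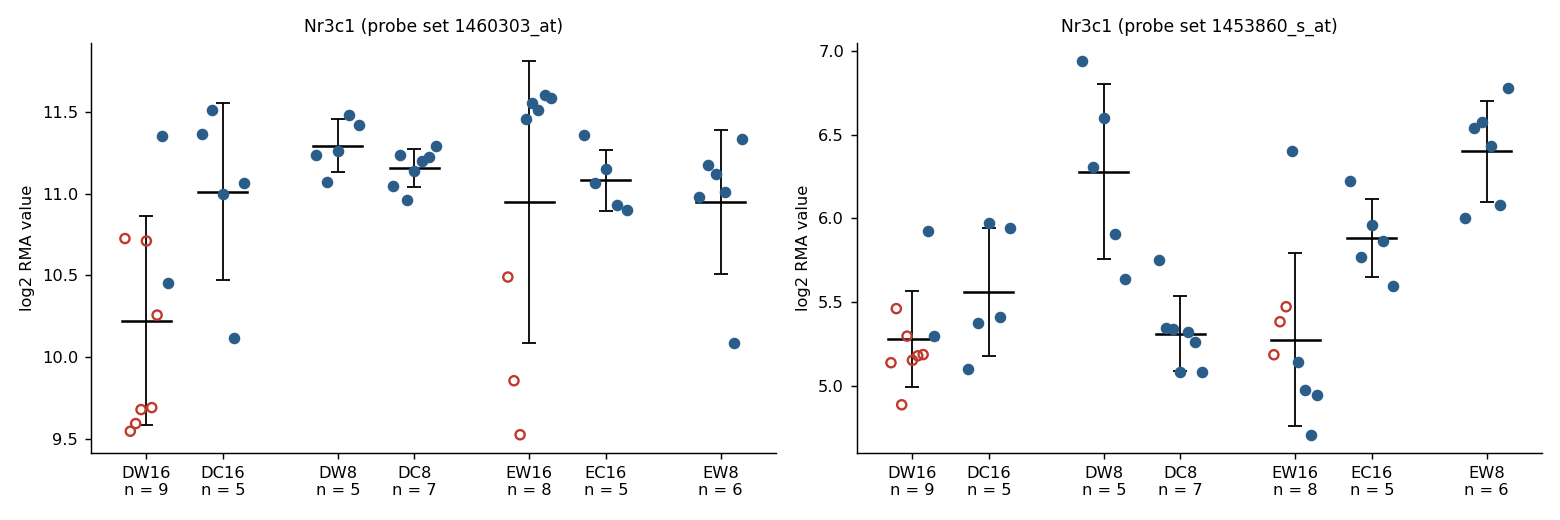
Log2 RMA value of 2 Nr3c1 probe sets in each mouse, by group, with mean (bar) and SD (whiskers), open red circles being the 10 arrays of narrower range. Probe set 1460303_at (left) reads 9.52 to 10.73 in those arrays, and 1453860_s_at (right) is high in DW8 and EW8.

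Over time on Western diet, 5 of 6 Nr3c1 probe sets had lower means at 16 than at 8 weeks in D mice, of which limma called 2 and SAM 4. Over all 45037 probe sets limma called 2436 and SAM 9574. The 2 Nr3c1 probe sets called by SAM only were 1460303_at (-1.07, SE 0.267, adjusted p = 0.0138 by limma, SAM q = 0.0049) and 1421866_at (-0.65, SE 0.173, adjusted p = 0.0183, SAM q = 0.0058). Probe set 1421867_at read 9.36, 9.49 and 11.03 as lowest, median and highest of DW16, against 10.91, 10.77, 11.06, 11.07 and 11.25 in DW8. DW16 mouse 8 alone reached the DW8 values. The difference was -1.21 (SE 0.236, adjusted p = 0.00553), and -0.89 (adjusted p = 0.0603) without the 6 narrow-range arrays. It was -0.79 (adjusted p = 0.00747) after quantile normalization, -0.56 (adjusted p = 0.313) with a covariate for array SD and -0.51 (adjusted p = 0.417) without the 10 arrays. The call held in 4 of 14 fits with 1 mouse left out, those without DW16 mouse 1, 5, 8 or 9, and the adjusted p was at most 0.0189, without DW8 mouse 3. In E mice the corresponding difference was -0.39 (SE 0.307, adjusted p = 0.391).

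Another Nr3c1 probe set, 1453860_s_at, with a mean of 5.64, had its highest group means in DW8 and EW8. It read 6.94, 6.31, 6.60, 5.91 and 5.64 in DW8, against 5.08, 5.32 and 5.75 as lowest, median and highest of DC8. DW8 mouse 5 lay within the DC8 range, and the difference of 0.97 (SE 0.189, adjusted p = 0.0114) just missed the threshold. The call was made with DC8 mouse 1 or DW8 mouse 5 left out. The DW16 mice read 4.89, 5.19 and 5.93 as lowest, median and highest, and DW16 mouse 8 alone lay within the DW8 range. This probe set decreased by 1.00 in DW16 relative to DW8 (SE 0.196, adjusted p = 0.00555), and by 0.94 without the 6 narrow-range arrays (adjusted p = 0.056).

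E mice gave a like difference in this probe set. The lowest, median and highest values were 4.71, 5.16 and 6.40 in EW16, against 6.00, 6.49 and 6.78 in EW8. Only EW16 mouse 4 overlapped with EW8. No chow group of E mice at 8 weeks was at hand for a diet difference at that time. EC16 averaged 5.89 (5.60 to 6.23) and overlapped with EW8, and EW16 minus EC16 was -0.61 (SE 0.228, adjusted p = 0.107, limma). EW16 minus EW8 was -1.13 (SE 0.220, adjusted p = 0.00931), and -1.17 (adjusted p = 0.0206) with the 10 arrays left out. The call held in 5 of 14 fits with 1 mouse left out in D mice (without DW8 mouse 5 or DW16 mouse 1, 2, 8 or 9) and in 1 of 14 in E mice (without EW16 mouse 4). These were 2 of 22 member probe sets called for DW16 against DW8 (background 5.41%) and 1 of 22 for EW16 against EW8 (background 1.57%). The change of the diet effect in D mice, DW16-DC16 minus DW8-DC8, was -1.25 for this probe set (SE 0.266, adjusted p = 0.0189), in a test that called 0.00444% of all probe sets. Which receptor transcript each probe set reads was not given in the sources used here, and the suffix of 1453860_s_at marks probes that can match several transcripts.

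Nr3c2, the mineralocorticoid receptor, which binds corticosterone with high affinity, was read by 1 probe set (1435991_at). Its group means lay between 6.76 and 7.03, and every comparison overlapped. Western diet minus chow was 0.23 (95% interval -0.03 to 0.49) at 8 weeks and -0.11 (-0.47 to 0.26) at 16 weeks in D mice, and -0.15 (-0.41 to 0.12) in E mice.

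Zbtb16, a zinc finger transcription factor also called PLZF and a sensitive glucocorticoid target, rose with Western diet in D mice at 1 of its 3 probe sets. Probe set 1427638_at (gene at chr9:48651797-48836225) read 6.52, 7.38 and 8.53 as lowest, median and highest of DW16, against 6.16, 6.10, 6.44, 6.16 and 6.22 in DC16. Every DW16 mouse lay above every DC16 mouse. The difference was 1.22 (SE 0.232, 95% interval 0.72 to 1.71, adjusted p = 0.0065, limma). It was 1.25 (adjusted p = 0.0695) with the 6 narrow-range arrays left out and 1.31 (adjusted p = 0.554) with the 10 left out, and the call held in 3 of 14 fits with 1 mouse left out (without DW16 mouse 2, 8 or 9).

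At 8 weeks the same Zbtb16 probe set read 6.86, 7.16, 6.65, 6.91 and 7.48 in DW8, against 5.75, 6.22 and 6.79 as lowest, median and highest of DC8. DW8 mouse 3 lay within the DC8 range, and the difference of 0.75 (SE 0.168) was not called (adjusted p = 0.0213). In EW16 the values were 5.93, 6.69 and 7.81 as lowest, median and highest, against 6.60, 6.96, 6.03, 6.23 and 6.31 in EC16. EW16 minus EC16 was 0.36 (SE 0.325, adjusted p = 0.476), and -0.07 (SE 0.229) with the 10 arrays left out, of which the 3 of EW16 read 7.00 to 7.81. The diet effect at 16 weeks in D mice minus that in E mice was 0.86 (SE 0.413, adjusted p = 0.786).

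The other Zbtb16 probe sets were not called in any diet comparison by limma or SAM. That of highest mean, 1439163_at, differed by 0.29 (SE 0.189, adjusted p = 0.268) between DW16 and DC16 and by 0.42 (adjusted p = 0.199) between DW8 and DC8. The third, 1419874_x_at, did not overlap between the groups at 8 weeks, with a mean of 8.13 ± 0.22 in DW8 (SD, n = 5) and 7.37 ± 0.59 in DC8 (SD, n = 7), a difference of 0.75 (SE 0.238, adjusted p = 0.0878). At 16 weeks it differed by 0.35 (SE 0.318, adjusted p = 0.431) between DW16 and DC16.

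**Figure D3:**
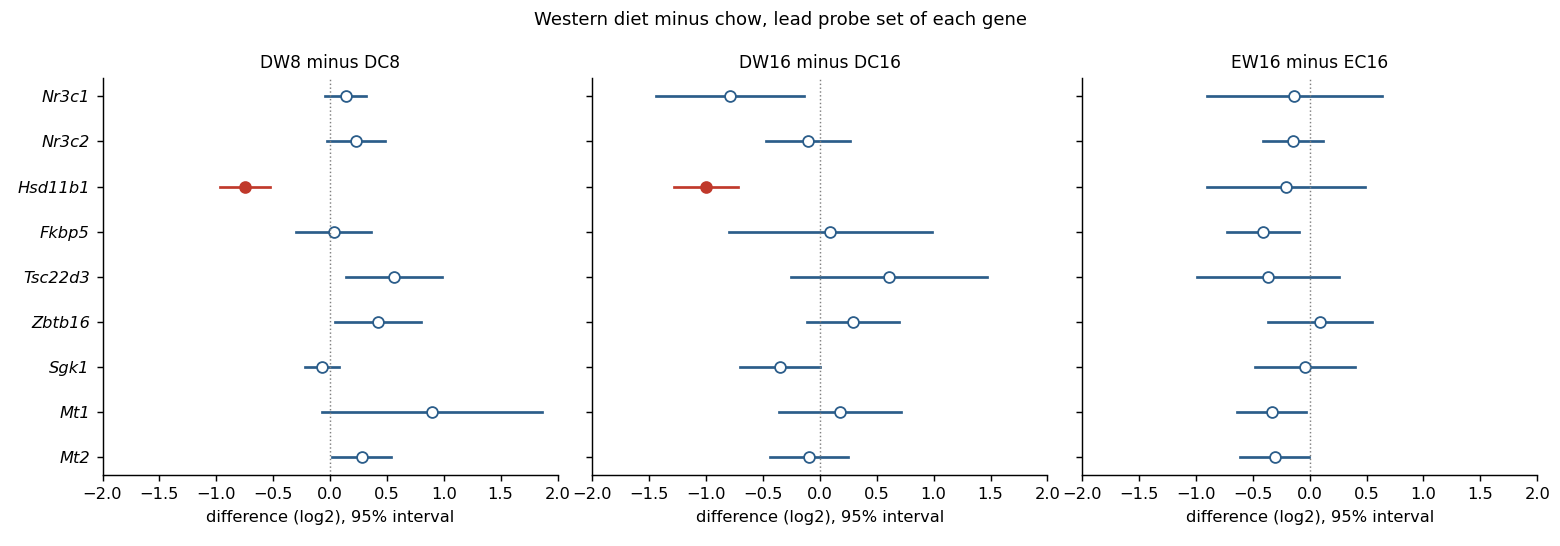
Log2 difference, Western diet minus chow, of the probe set of highest mean of each gene with its 95% interval, in D mice at 8 and 16 weeks and in E mice at 16 weeks. Filled red points passed an adjusted p of 0.01 (limma), which only Hsd11b1 did, in both D comparisons.

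Fkbp5, whose product is a co-chaperone that lowers the affinity of the receptor for hormone, averaged 8.30 in DW16 and 8.21 in DC16 at its probe set of highest mean (1416125_at, gene at chr17:28398753-28486149), with a wider spread in DW16. The DW16 mice read 8.75, 7.60, 7.63, 6.87, 7.87, 8.26, 8.36, 8.99 and 10.35, against 7.96, 8.60, 8.58, 7.82 and 8.07 in DC16. DW16 mouse 9 was the highest of all 45 mice and DW16 mouse 4 the lowest. The DW16 mice had an SD of 1.00 (n = 9), the DC16 mice one of 0.36 (n = 5), and the difference of means was 0.09 (95% interval -0.80 to 0.98). The 7 DW16 mice among the 10 arrays of narrower range read 6.87 to 8.75, and the 2 others 8.99 and 10.35. The unequal spread and the part of the array range in it were not tested.

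Tsc22d3, which encodes the glucocorticoid-induced leucine zipper GILZ, an inhibitor of inflammatory transcription factors, had a like pattern at 1420772_a_at (gene at chrX:140539528-140600522). The DW16 mice read 9.15, 6.63, 7.45, 7.10, 7.78, 7.57, 8.29, 9.09 and 8.98, against 7.00, 8.12, 7.53, 6.73 and 7.60 in DC16. DW16 mice 1, 7, 8 and 9 stood above every DC16 mouse, and DW16 mouse 2 below all. The difference was 0.61 (SE 0.405, 95% interval -0.25 to 1.47, adjusted p = 0.28), and 1.64 (SE 0.328, adjusted p = 0.287) with the 10 arrays of narrower range left out, which kept only DW16 mice 8 and 9. On the same 2 mice the Fkbp5 difference was 1.47 (SE 0.358, adjusted p = 0.383).

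In the other comparisons these 2 targets stayed below the threshold. At 8 weeks DW8 minus DC8 was 0.56 for Tsc22d3 (SE 0.196, adjusted p = 0.121) and 0.03 for Fkbp5 (95% interval -0.30 to 0.36). EW16 minus EW8 was -0.88 for Tsc22d3 (SE 0.264, adjusted p = 0.047), and EW16 minus EC16 was -0.41 for Fkbp5 (SE 0.148, adjusted p = 0.0934).

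**Figure D4:**
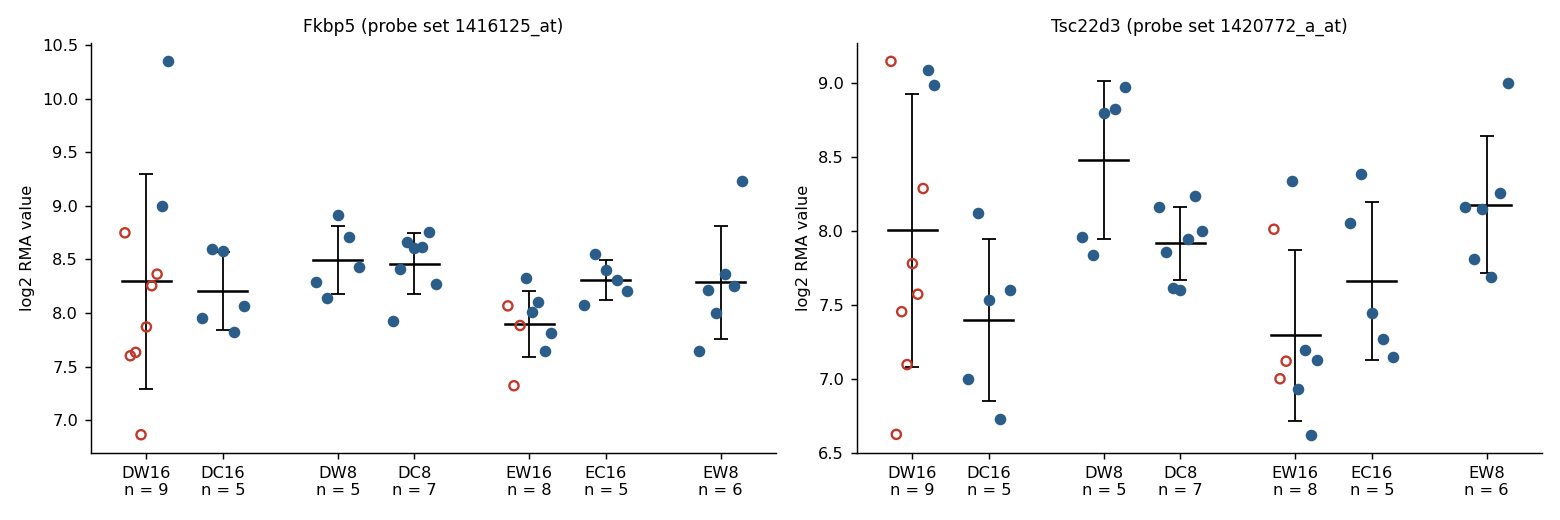
Log2 RMA value of Fkbp5 probe set 1416125_at (left) and Tsc22d3 probe set 1420772_a_at (right) in each mouse, by group, with mean (bar) and SD (whiskers), open red circles being the 10 arrays of narrower range. DW16 has an SD of 1.00 for Fkbp5 and 0.92 for Tsc22d3.

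Sgk1, a kinase that the glucocorticoid and mineralocorticoid receptors both induce, varied little between mice outside the 6 narrow-range arrays. There its within-group SD was 0.163 (39 mice), at the 30.9 percentile of all probe sets. The narrow-range arrays averaged 11.81 in DW16 and 11.73 in EW16, and the other arrays of these groups 12.36 and 12.71. The part of the array range in the Sgk1 values was not tested. The group means were 12.11 ± 0.35 in DW16 (SD, n = 9) and 12.46 ± 0.23 in DC16 (SD, n = 5), a difference of -0.35 (95% interval -0.70 to -0.0013, adjusted p = 0.131), and 12.46 to 12.58 in the other 5 groups. DW8 minus DC8 was -0.07 (95% interval -0.22 to 0.08).

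Mt1 and Mt2 encode metallothioneins, small proteins that bind zinc and copper and are induced by metals and glucocorticoids. Mt2 (1428942_at) had group means of 12.88 to 13.29. Mt1 (1422557_s_at) was the most variable of the members, with a within-group SD of 0.604 at the 98.9 percentile of all probe sets. It read 11.52, 11.98, 12.63, 12.33 and 12.62 in DW8, against 12.66, 11.37, 13.05, 10.56, 10.41, 10.98 and 10.20 in DC8. DC8 mice 1 and 3 stood above every DW8 mouse and the other 5 below every one. DW8 minus DC8 was 0.90 (SE 0.452, 95% interval -0.07 to 1.87, adjusted p = 0.305) for Mt1 and 0.28 (SE 0.121, adjusted p = 0.227) for Mt2. The suffix of the Mt1 probe set marks probes that can match more than 1 transcript, while its only symbol in the array annotation is Mt1. Whether it also reads related metallothioneins was not tested. The second Mt1 probe set, 1451612_at, differed by 0.04 (95% interval -0.25 to 0.34) between DW8 and DC8.

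The other 8 member probe sets (3 of Nr3c1, 2 of Fkbp5 and 3 of Tsc22d3) were not called by limma in any comparison, and all overlapped between diets. SAM called 1 of them, Nr3c1 1421866_at, in DW16 against DC16 (q = 0.0066) and in DW16 against DW8 (q = 0.0058). Their differences lay between -0.35 and 0.17 in DW8 against DC8, between -0.71 and 0.62 in DW16 against DC16 and between -0.22 and 0.18 in EW16 against EC16. At the ends of the DW16 against DC16 range were Nr3c1 1421866_at (-0.71, SE 0.179, adjusted p = 0.0161) and Tsc22d3 1425281_a_at (0.62, SE 0.351, adjusted p = 0.206), and Fkbp5 1448231_at gave 0.42 (SE 0.128, adjusted p = 0.0328).

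No member was called between genotypes. Of 22 probe sets, 0 passed for DW16 against EW16 (limma, 5 at an unadjusted p under 0.05, 0 by SAM), DC16 against EC16 (2 and 0) and DW8 against EW8 (3 and 0). Over all probe sets the called shares were 0%, 0.00222% and 0%, and the shares at an unadjusted p under 0.05 were 14.6%, 6.27% and 4.13%. Diet in E mice (EW16 against EC16) also gave 0, with 4 at an unadjusted p under 0.05 and 0 by SAM, at backgrounds of 2.66% called and 27.7% unadjusted. DC16 against DC8 gave 0 (limma, 3 unadjusted, 0 by SAM), at backgrounds of 0% and 8.74%. The 3 tests of a difference between effects gave 0 (limma). At an unadjusted p under 0.05 they gave 2 for the diet effect between genotypes (background 6.31%), 6 for the diet effect between times (27.7%) and 1 for the genotype effect between times (6.93%).

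Members were also compared mouse by mouse, with each value centred on its group mean and without the 6 narrow-range arrays (39 mice, 36 pairs). Mt1 and Mt2 varied together most closely, with Pearson's r = 0.78 and Spearman's rho = 0.67. The permutation p for r was 1e-05, the smallest the permutations could give (adjusted p = 0.00036), and that for rho was 0.00012 (adjusted p = 0.00432). When the 2 mice with the most extreme Mt1 values were left out, r was 0.67. Within the 10 arrays of narrower range r was 0.92, and in the 35 others 0.78 (permutation, adjusted p = 0.0018). In those 10 arrays all 36 member pairs had a positive r, from 0.26 (Hsd11b1 with Mt1) to 0.94 (Nr3c1 with Sgk1). By r over these 39 mice, Mt2 was the gene most like Mt1 and Mt1 the gene most like Mt2. Mt1 was read here by its probe set of highest mean, whose probes can match more than 1 transcript. Over the same mice its r with the other, dimmer Mt1 probe set, 1451612_at (mean 7.57), was 0.24. Any part of probes matching related metallothioneins in the r of Mt1 and Mt2 was not tested.

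**Figure D5:**
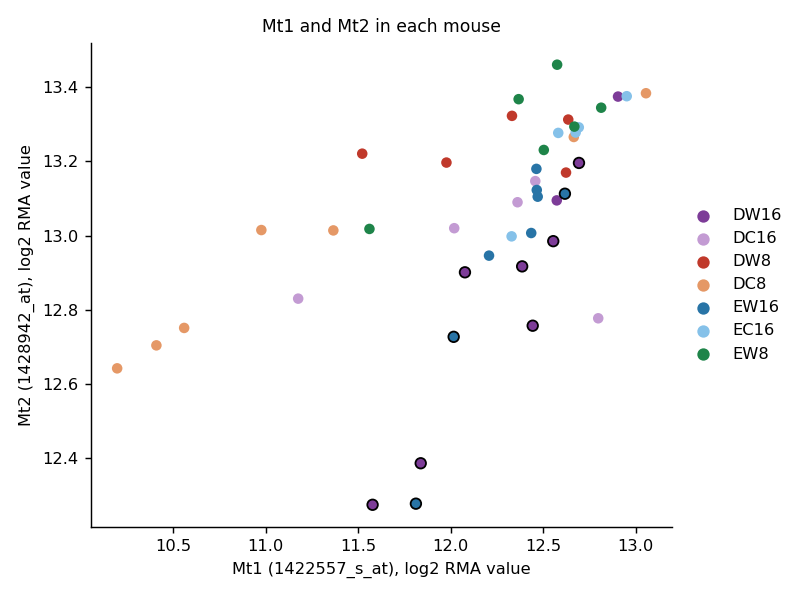
Log2 RMA value of Mt2 (vertical) against that of Mt1 (horizontal), 1 point per mouse, coloured by group, with black rims on the 10 arrays of narrower range. Mice high at 1 of these probe sets are high at the other, and the 4 lowest Mt1 values are DC8 mice. Whether the Mt1 probe set also reads related metallothioneins was not tested.

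Nr3c2 and Sgk1 gave r = 0.59 and rho = 0.60 (permutation, p = 0.00144 and 0.00111, adjusted p = 0.0173 and 0.0142), and r = 0.54 without the 2 farthest mice. Fkbp5 and Tsc22d3 gave r = 0.54 and rho = 0.56 (permutation, p = 0.00072 and 0.00118, adjusted p = 0.013 and 0.0142), and 0.54 without the 2 farthest. The pair Sgk1 and Mt1 was negative, with r = -0.33 and rho = -0.40 (permutation, p = 0.00554 and 0.0107, adjusted p = 0.0499 and 0.0967). In the 35 mice outside the 10 arrays, Nr3c2 with Sgk1 (r = 0.52, adjusted p = 0.0734), Fkbp5 with Tsc22d3 (0.47, adjusted p = 0.063) and Sgk1 with Mt1 (-0.30, adjusted p = 0.149) no longer passed 0.05. Hsd11b1 passed with no other member: its r with the receptor Nr3c1 was -0.01, and with the other members r ran from -0.26 to 0.26.

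Genes most like each member were described by r over the same 39 mice, with no test. Each member was read by its probe set of highest mean (1439163_at for Zbtb16), and each other gene by its probe set of highest r. Nr3c1 was most like Slc25a51 (r = 0.90), Son (0.89) and Uhmk1 (0.87). Zbtb16 was most like Egr2 (0.81), Sumf1 (0.70) and Zbtb14 (0.68), and Hsd11b1 most like Snx5, Mkrn2 and Trem1 (0.75 to 0.76). Fkbp5 was nearest to Pecr, Tcirg1 and Deaf1 (each 0.77), and Tsc22d3 to Tmem37, Nanp and Riok2 (0.72 to 0.73).

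Of 77 other genes of the pathway, 71 were measured, each described by its probe set of highest mean. Of 7 measured genes of steroid activation and clearance, 0 were called in any diet comparison (limma). At an unadjusted p under 0.05 there were 0 in DW8 against DC8, 3 in DW16 against DC16 and 1 in EW16 against EC16, and SAM called 0, 1 and 0. Over all 45037 probe sets SAM called 391, 6364 and 3785 in the same order, and 27.7% passed an unadjusted p of 0.05 in EW16 against EC16. The median difference of these 7 genes was -0.20 in DW16 against DC16, beside -0.01 over all genes. Of 7 receptor chaperones Bag1, which modulates Hsp70 and receptor activity, was lower in EW16 than in EC16 (-1.28, SE 0.201, adjusted p = 0.00337). Their median was -0.58 in DW16 against DC16 and -0.44 in EW16 against EC16, beside -0.01 and 0.01 over all genes. These chaperone probe sets were bright, with means of 8.75 (Stip1) to 13.97 (Hspa8) over all arrays. The arrays of narrower range in DW16 and EW16 read lower at the upper end of values. Their part in the medians of this and the other lists was not tested.

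Of 10 coregulators, 2 were lower in DW16 than in DC16: Nrip1, a corepressor of nuclear receptors that limits energy expenditure in fat (-1.17, SE 0.253, adjusted p = 0.00954), and Smarca4, a chromatin remodelling ATPase (-1.12, SE 0.231, adjusted p = 0.00824). Of 26 other glucocorticoid-induced genes, Cdkn1c, the cell cycle inhibitor p57, was lower on Western diet in every diet comparison. It differed by -0.88 (SE 0.161, adjusted p = 0.00853) for DW8 against DC8, -1.40 (SE 0.283, adjusted p = 0.00779) for DW16 against DC16 and -1.59 (SE 0.179, adjusted p = 0.00142) for EW16 against EC16. Lcn2, which encodes lipocalin, was lower in EW16 than in EC16 (-1.41, SE 0.275, adjusted p = 0.00792). The mesothelial and epithelial list was lower in the same comparison, with a median difference of -1.28 and 3 of 6 genes called, and its part in the decreases of Bag1, Cdkn1c and Lcn2 was not tested. Limma called no other gene of this list in a diet comparison, whereas SAM called 1 gene of the list in all in DW8 against DC8, 2 in DW16 against DC16 and 4 in EW16 against EC16. The list medians were 0.01, -0.37 and -0.27 in the same order of comparisons, beside -0.04, -0.01 and 0.01 over all genes. Background shares of genes called lower were 0.264%, 3.47% and 3.52%.

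Of 12 genes of the mineralocorticoid receptor and Sgk1 pathway and 9 of metallothionein and zinc handling, 0 were called in a diet comparison (limma). For the mineralocorticoid list 3, 6 and 3 passed an unadjusted p of 0.05 in DW8 against DC8, DW16 against DC16 and EW16 against EC16, and SAM called 0, 3 and 1. For the zinc list 1 passed it in each, and SAM called 0, 1 and 0. Over all 45037 probe sets 27.7% passed it in EW16 against EC16, and SAM called 391, 6364 and 3785 in the same order. Over time, the ubiquitin ligases Nedd4l (-0.97, SE 0.143, adjusted p = 0.00209) and Nedd4 (-1.31, SE 0.249, adjusted p = 0.00493), of which Nedd4l is a substrate of Sgk1, were lower in DW16 than in DW8. The zinc transporter Slc30a5 was lower as well (-1.11, SE 0.226, adjusted p = 0.00638). Of the coregulators Nrip1 (-1.33) and Hdac2 (-0.92) were lower in DW16 than in DW8, and Hdac2 (-1.01) in EW16 than in EW8, as was the chaperone Bag1 (-1.13). The background of genes called lower was 5.57% for DW16 against DW8 and 1.69% for EW16 against EW8.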

How the data were processed

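The authors hybridized RNA of adipocytes from 45 mice to MG430-2.0 arrays (Affymetrix), and the deposited values are log2 expression from RMA express. Its version is not given in the sources used here. The authors mention quantile normalization across conditions, but the 95th percentiles of the deposited arrays ran from 10.14 to 11.14, so their distributions are not equal. Values were used as deposited (0 columns left out). Of 45037 probe sets 34945 have 1 symbol, 932 several and 9160 none. Groups came from the labels. Pairs of groups and differences of effects were fitted with limma 3.58.1 in R 4.3.3, p-values were adjusted (Benjamini-Hochberg) over the 45037 probe sets, and calls were made at 0.01. SAM was rewritten (100 permutations). Each gene is described by its probe set of highest mean over all arrays, but the genes most like a member by their probe set of highest r. Other member probe sets were named when called, or, after their values had been seen, for a near call or a contrast. Pathway genes were named when called. Correlations used 100000 permutations within groups (NumPy 2.4.6, SciPy 1.17.1). In data simulated for the DW16 and DC16 groups over 45037 probe sets, limma called 80 of 100 probe sets changed by 1 on the log2 scale. It called 97 of 100 changed by 2 and 2 unchanged ones. The simulated noise was independent between probe sets and arrays. It held no shift shared by many probe sets of an array, so these counts do not cover the arrays of narrower range. Members and lists were chosen with earlier results of these data known. The number of arrays limits the precision. The alternatives were 1 spread over all groups, a trended robust variance, quantile normalization, median centring, a level filter, a threshold of 0.05, a call by both methods, a replicate block, array SD as a covariate, narrow-range arrays or each mouse left out, and, added after the data were seen, the 10 arrays left out.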

Additional observations from a re-analysis of the deposited data

Results flagged for a closer look

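Of 84 groups of values tested (12 probe sets in 7 groups), 8 held a mouse whose gap to the nearest other mouse was large against the range of its group, and chance flags about 1 in 20 groups. In Nr3c1, DC16 mouse 4 read 10.02 and EW8 mouse 5 9.84 at 1421867_at, each the lowest of its group, and EW8 mouse 5 was also the lowest at 1460303_at with 10.09. At the dimmer Nr3c1 probe set 1453860_s_at, EW16 mouse 4 read 6.40 and DC8 mouse 1 5.75, each the highest of its group. DW8 mouse 5 was lowest for Nr3c2 with 6.50. Among the metallothioneins EW8 mouse 3 was lowest for Mt1 with 11.56, and EC16 mouse 4 lowest for Mt2 with 13.00.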

How the results depend on the processing

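Of 6 differences of called member probe sets, none changed direction under any alternative run, and all 6 kept their call under median centring, a robust trended variance, a level filter and the call by both limma and SAM. In DW8 against DC8, where 1 member probe set was called, 0 were with 1 spread over all 7 groups, 2 with a trended and robust variance, 2 among probe sets above the median level and 3 at 0.05. Over all probe sets these calls were 485, 147, 557, 490 and 2162 in that order. In DW16 against DC16 the count of 2 became 5 with 1 spread, 5 at 0.05, 0 without the narrow-range arrays, 0 without the 10 arrays and 0 with the array SD as covariate. In EW16 against EC16 it was 0, and 1 without the 10 arrays or with the array SD, beside 1200, 3160 and 1214 over all probe sets. In DW16 against DW8 the 2 became 4 with 1 spread, 4 at 0.05, and 0 without the narrow-range arrays, without the 10 arrays or with the array SD. In EW16 against EW8 the 1 became 0 after quantile normalization, 2 at 0.05, and 0 without the narrow-range arrays, without the 10 arrays or with the array SD. For DW16-DC16 minus DW8-DC8 the 0 became 3 at 0.05. The causes were not tested, and leaving out arrays also left fewer mice. Over all probe sets the DW16 against DC16 calls were 1545, with 7723 at 1 spread and 9598 at 0.05. They were 5 without the narrow-range arrays, 0 without the 10 and 3 with the array SD. After quantile normalization 47.9% of the DW16 against DC16 calls were higher, against 23.2% as deposited.

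Replicate numbers are shared between groups. Between DW16 and EW16 the deviations of same-numbered mice had correlations of -0.437 to 0.532 (mean 0.169, 5 of 8 over 0.1). Over the comparisons of 2 groups the mean ran from -0.117 (DC16 against DC8) to 0.169. No source used here names same-numbered mice as pairs, and they were not taken as such. With the replicate block the counts were 0 in DW8 against DC8 (Hsd11b1 -0.79, adjusted p = 0.0175), 4 in DW16 against DC16, 0 in EW16 against EW8 and 2 in DW16-DC16 minus DW8-DC8.

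With each mouse left out in turn the counts ran from 1 to 3 in DW8 against DC8 (3 without DC8 mouse 1, 2 without DW8 mouse 5), 1 to 4 in DW16 against DC16 (4 without DW16 mouse 8), 0 to 1 in EW16 against EC16 (1 without EW16 mouse 4), 0 to 4 in DW16 against DW8 (4 without DW16 mouse 8), 0 to 2 in EW16 against EW8 (2 without EW16 mouse 4), 0 to 3 in DW16-DC16 minus DW8-DC8 (3 without DW16 mouse 8, 1 without DW16 mouse 9), and 0 to 0 in the others. Over all probe sets the calls of the named comparisons ran from 140 to 1165, 51 to 6041, 38 to 3177, 208 to 7301, 2 to 3300 and 0 to 3037, in that order. Beside the 4 member pairs that passed 0.05, 11 did with all 45 mice, 7 without centring and 1 without the 10 arrays.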
